A study of Caenorhabditis elegans with 10 samples.

Results

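Of the Hox genes of Caenorhabditis elegans, 4 lie in a loose cluster near the centre of chromosome III. The stretch described here is 450 kb long and ends at 7.9 Mb of that chromosome on the ce10 build. The genes lin-39 and ceh-13 lie towards its lower end, and mab-5 and egl-5 towards its higher end. Its members are the accessible regions (ATAC-seq peaks) whose summit, the base with the highest signal, falls inside it. In all, 278 of the 55893 peaks in 3 stage lists met this rule. They were 153 of 27694 early embryo peaks, 62 of 13040 larval stage 3 (L3) peaks and 63 of 15159 young adult peaks. The edges of the stretch were set by position and not by any measured value.

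The samples were whole wild-type N2 animals grown at 20°C. There were 3 replicates each of early embryos obtained by bleaching gravid adults, L3 larvae at 36 h and young adults at 57 h from the time the eggs were laid. A further sample was an input control of purified genomic DNA. ATAC-seq uses a transposase that inserts sequencing adapters into open DNA, and a peak marks a place where insertions were frequent. The signal is summed over all cells of the animals, so that fewer cells with an open region and less opening per cell cannot be told apart. By the study's methods the authors favoured peaks that recurred across replicates, and each list was called on the pooled replicates of its stage. No spread between replicates can therefore be given, no comparison was tested, and intervals cover counting error only. The depth behind each peak is not in the lists. By the study's own sequencing summary the early embryo libraries were the most deeply sequenced and the L3 libraries the least, and the part of depth in the number of peaks was not tested.

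Hox genes encode homeodomain transcription factors that give cells their identity along the body axis. In the worm, ceh-13 is the labial-type gene and acts in the embryo and anterior body, and lin-39 is the Sex combs reduced/Deformed-type gene that specifies the mid-body, including the cells that form the vulva. The gene mab-5 is the Antennapedia-type gene of the posterior body and guides migrating neuroblasts, and egl-5 is the Abdominal-B-type gene of the tail. Other genes are interspersed among them, which sets this cluster apart from the compact clusters of vertebrates. In the RefSeq gene order (WBcel235, used for names and neighbours alone; 4 of 4 genes matched), no protein-coding gene stood between lin-39 and ceh-13. There were 37 between ceh-13 and mab-5, and 1, cyk-7, between mab-5 and egl-5. Since the genes were not placed on the ce10 build here, no peak is assigned to a gene, and the ends of the stretch stand in for the gene pairs.

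Early embryos had the most peaks in the stretch, as they did in the genome as a whole. The 153 early embryo peaks made up 0.552% of their list (95% exact binomial interval, 0.469 to 0.647%), the 62 L3 peaks 0.475% (0.365 to 0.609%) and the 63 young adult peaks 0.416% (0.319 to 0.531%). The intervals of all 3 stages overlapped. The early embryo peaks covered 38921 bp, the L3 peaks 20726 bp and the young adult peaks 20905 bp. When each list was reduced to its 13040 peaks with the lowest q-values, the length of the L3 list, the stretch held 57 early embryo, 62 L3 and 57 young adult peaks. At equal length the early embryo list thus had no surplus in the stretch. The peaks removed were the weaker ones by construction.

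**Figure D1:**
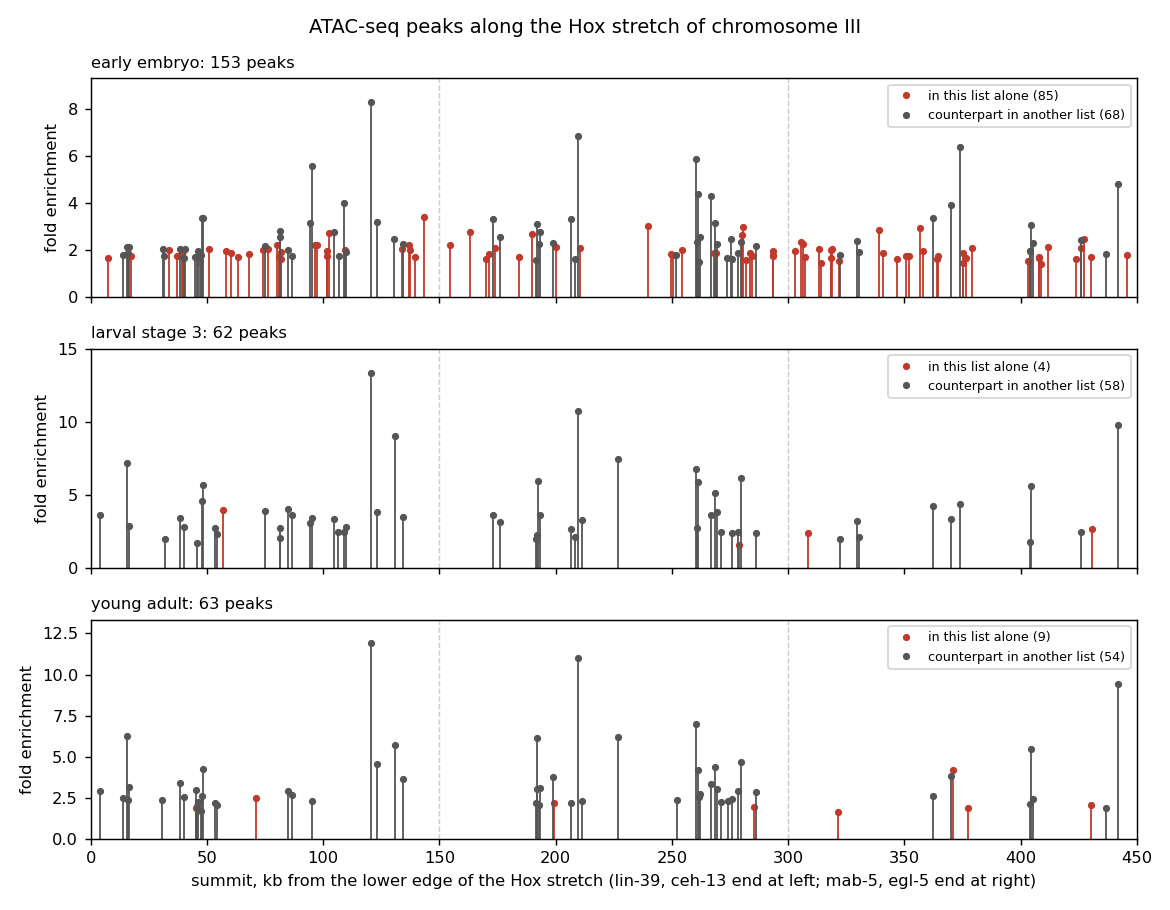
Fold enrichment (MACS pileup over the local background at the summit; vertical axis, its own scale at each stage) of each peak against its distance in kb from the lower edge of the stretch. Red marks peaks in that list alone (85, 4 and 9 peaks in early embryo, L3 and young adult) and grey marks peaks with a counterpart in another list; dashed lines part the stretch into 150 kb parts. The tallest peak stands in the lower 150 kb at every stage, and the right-hand 150 kb of the lower 2 panels is sparse.

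Peaks were matched between lists where they overlapped by at least 0.5 of the length of either peak. By this rule 85 of the 153 early embryo peaks (55.6%, 47.3 to 63.6%) had no counterpart at either other stage, against 50.9% of the whole early embryo list. Of the L3 peaks, 4 of 62 (6.45%, 1.79 to 15.7%) were found in L3 alone, against 10.9% of the whole list. Of the young adult peaks, 9 of 63 (14.3%, 6.75 to 25.4%) were found in young adults alone, against 17.3% of the whole list. Each whole-list share lay within the interval of the stretch, so that stage-specific peaks were not set apart by number here. With the lists at equal length, 18 of 57 early embryo (31.6%), 13 of 62 L3 (21.0%) and 15 of 57 young adult peaks (26.3%) were in 1 list alone, against 37.2%, 21.2% and 24.1% of those shortened lists.

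Taken by pairs, L3 and young adult peaks of the stretch had counterparts in the early embryo list more often than in each other's, as they also had over the whole lists. Of the L3 peaks, 11 of 62 (17.7%) had no early embryo counterpart, against 23.7% of the whole list, and 23 of 62 (37.1%, 25.2 to 50.3%) had no young adult counterpart, against 27.3%. Of the young adult peaks, 16 of 63 (25.4%) had no early embryo counterpart, against 28.3% of the whole list, and 24 of 63 (38.1%) had no L3 counterpart, against 38.1%. Of the early embryo peaks, 100 of 153 (65.4%) had no L3 counterpart, against 62.7% of the whole list, and 105 of 153 (68.6%, 60.6 to 75.9%) had no young adult counterpart, against 59.0%. The last of these shares was the one whose interval lay wholly above its whole-list value. At equal list length, early embryo peaks with a young adult counterpart were 38.9% (17.3 to 64.3%) in the lower 150 kb. They were 61.5% (40.6 to 79.8%) in the middle and 38.5% (13.9 to 68.4%) in the higher 150 kb. Each of these intervals held the 52.8% of the shortened list, so that no part then stood apart. The early embryo list is the longest, so that it offers the most counterparts.

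Peaks present at all stages were fewer than in the genome at large in the early embryo list. There 33 of 153 (21.6%, 15.3 to 28.9%) had counterparts in both other lists, against 29.2% of the whole list, a value just above the interval. The L3 count was 32 of 62 (51.6%, 38.6 to 64.5%, against 60.0%), and the young adult count was 32 of 63 (50.8%, 37.9 to 63.6%, against 50.9%). With the lists at equal length the early embryo share was 42.1%, against 44.7% of the shortened list.

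Joining the matched peaks gave 171 separate accessible regions in the stretch. Of these, 85 were open in early embryo alone, 4 in L3 alone, 9 in young adult alone, 19 in early embryo and L3, 15 in early embryo and young adult, 7 in L3 and young adult, and 32 at all 3 stages. The early embryo plus L3 class took 11.1% of the regions, against 6.43% of the 1540 regions in the rest of the chromosome III centre. The class shared by all stages took 18.7%, against 23.4% in the rest of the centre. Early embryo alone took 49.7%, against 44.9%, L3 alone 2.34%, against 3.96%, and young adult alone 5.26%, against 7.92%. The early embryo plus young adult class took 8.77%, against 8.7%. The classes were not counted at equal list length. These shares are a description, since the regions of 1 stretch share their neighbourhood.

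The strongest region of the stretch stood in its lower 150 kb and was open throughout. At chrIII:7570056-7570835 the early embryo peak had a fold enrichment of 8.29 (rank 91 of 27694 by fold enrichment) and a width of 780 bp. The L3 peak at chrIII:7569934-7570808 had a fold enrichment of 13.4 (rank 84 of 13040) and, at 875 bp, was the widest of the 278 peaks. The young adult peak at chrIII:7570056-7570829 had a fold enrichment of 11.9 (rank 157 of 15159). Fold enrichment depends on the depth and background of each list, so that ranks within a list are the safer guide across stages. By rank, this region was in the top 1.04% of every list.

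A second region open throughout stood in the middle 150 kb. The early embryo peak at chrIII:7659230-7659982 had a fold enrichment of 6.86 (rank 291), the L3 peak one of 10.8 (rank 287) and the young adult peak one of 11.0 (rank 228). The middle part also held a group of adjoining peaks that starts at 7710034. Its first summit had a fold enrichment of 5.86 in early embryo (rank 593), 6.81 in L3 (rank 1377) and 6.96 in young adult (rank 1068). In early embryo, 3 peaks followed each other there without a gap, from 7710034 to 7711276. The 10 kb from 7.71 to 7.72 Mb held more peaks over the 3 lists, 23, than any other 10 kb of the stretch.

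At the mab-5 and egl-5 end, the region with the highest fold enrichment in L3 and young adult stood near the higher edge. At chrIII:7891767-7892138 the early embryo peak had a fold enrichment of 4.81 (rank 1251 of 27694). The L3 peak at chrIII:7891732-7892168 had a fold enrichment of 9.80 (rank 447 of 13040) and the young adult peak at chrIII:7891728-7892163 one of 9.43 (rank 422 of 15159). These ranks were the top 4.52%, 3.43% and 2.78% of the 3 lists in the same order, so that the region changed little by rank. It was the last L3 and the last young adult peak inside the higher edge of the stretch.

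Other strong regions were ranked higher in the embryo. At chrIII:7823968-7824435, the strongest embryonic peak of the higher 150 kb, the early embryo peak had a fold enrichment of 6.39 (rank 425), the L3 peak had one of 4.42 (rank 3441), and the young adult list had no counterpart. At chrIII:7545108-7545500, in the lower 150 kb, fold enrichment was 5.56 in early embryo (rank 749), 3.44 in L3 (rank 5354) and 2.33 in young adult (rank 10488). The wide embryonic peak at chrIII:7558461-7559001 (541 bp) had a fold enrichment of 4.01 (rank 2173), its L3 counterpart one of 2.48 (rank 9152), and young adults had none. At each of these places the rank was lower at the later stages.

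The reverse order was seen at other places. The region at chrIII:7676675-7677117 in the middle 150 kb had a fold enrichment of 7.49 in L3 (rank 1077) and 6.19 in young adult (rank 1421), and no counterpart in early embryo, the stage with the longest list. In the lower 150 kb, the region at 7580487 had a fold enrichment of 2.48 in early embryo (rank 8264), 9.07 in L3 (rank 570) and 5.73 in young adult (rank 1692). The region at 7465356 had a fold enrichment of 2.15 in early embryo (rank 12765), 7.21 in L3 (rank 1188) and 6.28 in young adult (rank 1372). The regions shared by L3 and young adult but absent from the early embryo list were 7 of 171 (4.09%), against 4.74% in the rest of the centre. Of these, 3 lay in the lower, 4 in the middle and 0 in the higher part. The higher part had 52 regions in all, so that 0 there says little.

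Peaks found at 1 stage alone were weak by comparison. In early embryo the 3 with the highest fold enrichment were chrIII:7593393-7593623 (3.41, rank 3418), chrIII:7689768-7690126 (3.04, rank 4656) and chrIII:7730456-7730730 (2.98, rank 4939). In L3 they were chrIII:7506927-7507251 (3.95, rank 4225), chrIII:7880462-7880638 (2.71, rank 7989) and chrIII:7758608-7758849 (2.41, rank 9610). In young adult they were chrIII:7820771-7821020 (4.17, rank 3372), chrIII:7520906-7521212 (2.49, rank 9239) and chrIII:7649192-7649443 (2.15, rank 12051). The 85 early embryo peaks in that list alone had a median fold enrichment of 1.89 and a median width of 214 bp, and the 33 early embryo peaks found at all stages had medians of 2.79 and 268 bp. The whole early embryo list had the same order, with 1.95 and 220 bp for peaks of that list alone and 2.66 and 285 bp for peaks at all stages.

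The summits of the 32 regions found at all 3 stages lay close together between stages. Matching by overlap favours near summits, so that these distances do not test whether summits moved. The median distance between summits was 11.5 bp from L3 to early embryo, 10 bp from young adult to early embryo and 7 bp from young adult to L3, and 29, 30 and 31 of the 32 lay within 50 bp. Over all 7484 such regions of the genome the medians were 12, 12 and 8 bp, and 89.0%, 90.0% and 93.8% lay within 50 bp. The order of the 32 by rank was most alike between the later stages. Spearman's rho of the rank percentages was 0.843 between young adult and L3, 0.572 between L3 and early embryo and 0.472 between young adult and early embryo, as a description over 32 regions that share their lists and their neighbourhood.

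**Figure D2:**
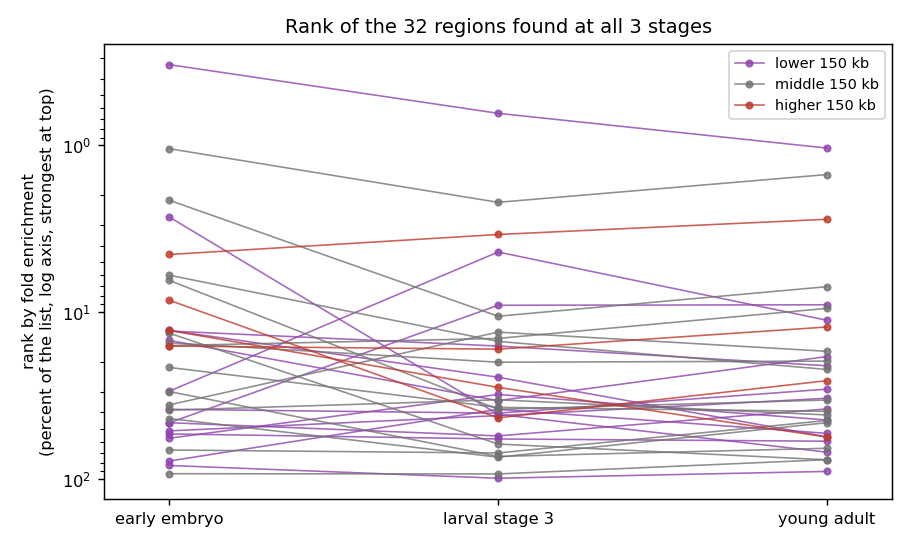
Rank by fold enrichment, in percent of each list on a log axis with the strongest at the top, of the 32 regions found at all 3 stages; each line is 1 region, coloured by the 150 kb part it lies in. The region at the top stayed at the top at every stage, and the order changed more between early embryo and L3 (rho 0.572) than between L3 and young adult (rho 0.843).

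Against the rest of the chromosome III centre the stretch was ordinary in the number of its early embryo and L3 peaks and at the lower end in young adults. It was set beside 8 other windows of 450 kb that tile the middle of 3 equal parts of the chromosome. Early embryo had 153 peaks in the stretch, against 110 to 183 in the other windows (median, 152), with 4 windows above and 4 below. L3 had 62, against 46 to 90 (median, 68), again with 4 above and 4 below. Young adult had 63, against 63 to 102 (median, 79), with 7 windows above, 1 equal and 0 below. The last place of the young adult count was not kept under other settings. There were 6 windows above and 2 below both at equal list length by q-value and with adjoining peaks joined, 21 above and 7 below among 29 tiles of the whole chromosome, and 57 above and 7 below among 66 sliding windows of the centre. There were 0.412 young adult peaks for each early embryo peak in the stretch, against a median of 0.546 in the other windows (0.404 to 0.691).

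In width the stretch was at the upper end at the later stages, by a small margin. The median L3 peak was 306 bp wide in the stretch, against medians of 269 to 298 bp in the other windows. The median young adult peak was 304 bp wide, against 266 to 299 bp. The stretch was first of 9 windows at both stages, and its early embryo median of 236 bp lay inside the range of the others (222 to 250 bp). The interquartile range of widths was 246 to 377 bp in the L3 peaks of the stretch, far wider than these margins. Width also depends on the authors' division of wide peaks between summits. Pieces of divided peaks were 11 of 62 in L3, against 178 of 622 in the rest of the centre. In young adult they were 14 of 63, against 233 of 704, and the part of this step in the widths was not tested.

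In strength the stretch stood at different places among the windows by stage, though each interval below held the share of the whole list. Of its early embryo peaks, 10 of 153 (6.54%, 3.18 to 11.7%) were in the top 10.0% of their list by fold enrichment, against a median share of 10.1% in the other windows. Of its L3 peaks, 6 of 62 (9.68%, 3.63 to 19.9%) were in the top 10.0% of theirs, against a median of 8.15% in the other windows. Of its young adult peaks, 7 of 63 (11.1%, 4.59 to 21.6%) were in the top 9.99% of theirs, above all 8 other windows (1.96 to 10.8%). In number, these 7 lay within the 2 to 8 such peaks of the other windows. The median fold enrichment of the young adult peaks, 2.61, was below 7 of the 8 other windows (2.52 to 2.93). The early embryo share of peaks found at all stages, 21.6%, was below all 8 other windows, whose lowest share was 22.7%.

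**Figure D3:**
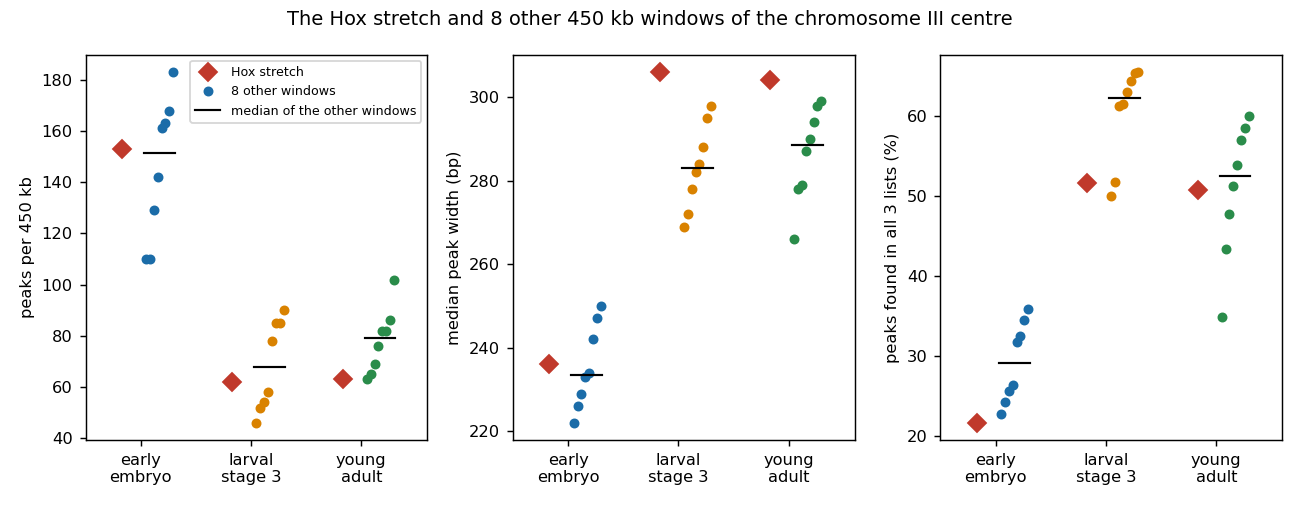
Peaks per 450 kb, median peak width in bp and percentage of peaks found in all 3 lists, at each stage, for the Hox stretch (red diamond) and 8 other windows of the chromosome III centre (dots, in rising order, with their median as a line); the axes do not start at 0. The diamond is near the middle of the early embryo counts (153, against 110 to 183), at the foot of the young adult counts (63, against 63 to 102) and above all other windows in L3 and young adult width.

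Peaks were spread unevenly along the stretch. In the lists as deposited, the mab-5 and egl-5 end was the sparse one at the later stages. The lower 150 kb, at the lin-39 and ceh-13 end, had 59 early embryo, 27 L3 and 26 young adult peaks. The middle 150 kb had 48, 23 and 26 at the same stages. The higher 150 kb had 46, 12 and 11. Early embryo counts in these lists thus differed little between the middle and the higher part. The L3 and young adult counts (12 and 11) were well below those of the middle part (23 and 26). This contrast of early embryo with L3 was not kept at equal list length, as given below.

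For scale, 27 other tiles of 150 kb in the centre were counted the same way, a comparison added after the data were seen. The 11 young adult peaks of the higher part were fewer than in all 27 tiles (12 to 48; median, 26). The 12 L3 peaks were fewer than in 24 tiles and more than in 1 (9 to 41; median, 22). The 46 early embryo peaks were in the middle of the range (24 to 71; median, 47). The ratio of young adult to early embryo peaks was 0.239 there, below all 27 tiles (0.316 to 0.848; median, 0.54). The ratio of L3 to early embryo peaks was 0.261, with 2 tiles below it (median, 0.426).

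Reducing the lists to equal length kept the young adult result and changed the embryonic one. The higher part then had 7 young adult peaks, still fewer than in all 27 tiles (10 to 40), and 12 L3 peaks. It had 13 early embryo peaks, fewer than in 25 of the tiles (7 to 30, with a median of 22). The middle part then had 26 early embryo, 23 L3 and 26 young adult peaks, and the lower part 18 early embryo peaks. The higher part was thus sparse in early embryo as well as at the later stages. Its ratio of young adult to early embryo peaks became 0.538, still below all 27 tiles but by a narrow margin (0.556 to 2.0, with a median of 1.0). The ratio of L3 to early embryo peaks became 0.923, with 8 tiles below it (median, 1.05), so that its low place was not kept. The other 33 embryonic peaks at this end had weaker q-values than those 13040.

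The make-up of the higher part differed too. Of its 46 early embryo peaks, 33 (71.7%, 56.5 to 84.0%) were found in that list alone, against 29 of 59 (49.2%, 35.9 to 62.5%) in the lower part and 23 of 48 (47.9%, 33.3 to 62.8%) in the middle part. In the other tiles this share ran from 30.4 to 73.7%, with 1 tile above the higher part. At equal list length the share was 5 of 13 (38.5%, 13.9 to 68.4%), near the median of the tiles (34.5%), so the excess was not kept. Counterparts in young adults were found for 7 of the 46 early embryo peaks of the higher part (15.2%, 6.34 to 28.9%), against 20 of 59 (33.9%) in the lower part, 21 of 48 (43.8%) in the middle part and 41.0% of the whole list. At equal list length the share in the higher part was 5 of 13 (38.5%, 13.9 to 68.4%), against 52.8% of the shortened list, a value inside that interval. Of the 12 L3 peaks of the higher part, 4 (33.3%, 9.92 to 65.1%) had a young adult counterpart, against 17 of 27 (63.0%) in the lower part, 18 of 23 (78.3%) in the middle part and 72.7% of the whole list. These 4 of 12 were the same in number at equal list length, against 68.8% of the shortened list.

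**Figure D4:**
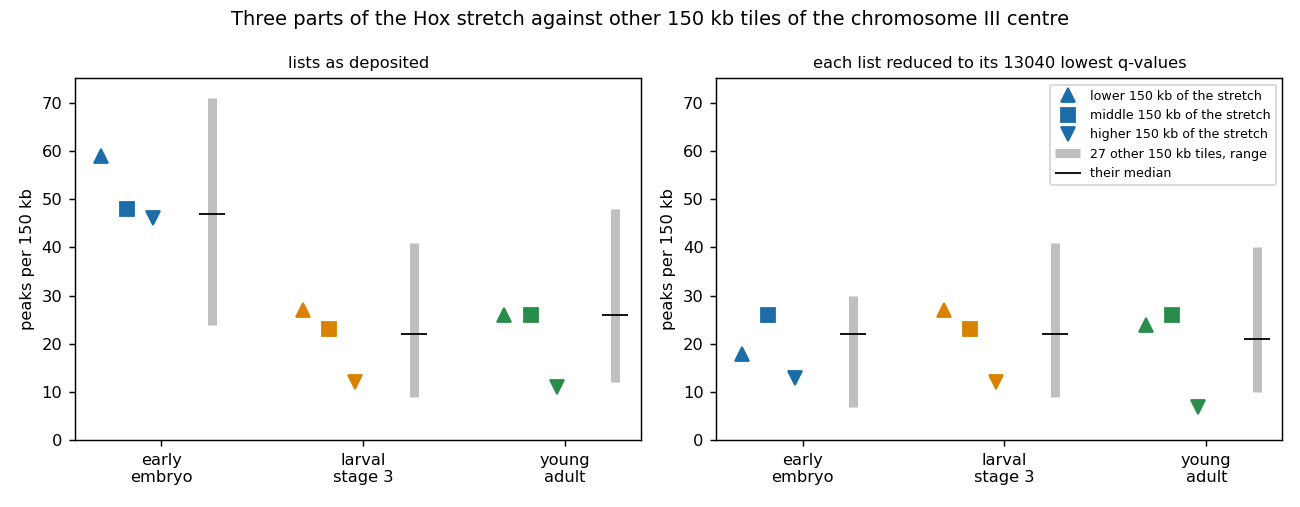
Peaks per 150 kb in the lower, middle and higher part of the Hox stretch (triangles up, squares, triangles down) at each stage, beside the range (grey bar) and median (black line) of 27 other 150 kb tiles of the chromosome III centre. On the left the lists are as deposited and on the right each list holds its 13040 lowest q-values; the higher part has fewer young adult peaks than all 27 tiles in both (11, then 7).

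Young adult peaks were fewest from 300 to 350 kb above the lower edge. There the early embryo list had 16 peaks, the L3 list had 4 and the young adult list had 1. Of the 16, 13 were in the early embryo list alone, where such peaks were 55.6% of the stretch and 50.9% of the whole list. The sole young adult peak, at chrIII:7771545-7771733, had a fold enrichment of 1.61 (rank 15043 of 15159) and was chosen for mention after its value was seen. Among 72 other bins of 50 kb in the centre, 3 had at most 1 young adult peak, and none of these had 16 or more early embryo peaks. This comparison was also added after the data were seen. Its limits are this bin's own counts, so that it cannot show the bin to be unusual. At equal list length the same 50 kb held 4 early embryo, 4 L3 and 0 young adult peaks, and those in 1 list alone were not counted.

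L3 peaks were fewest in the next bin, from 350 to 400 kb, with 13 early embryo, 3 L3 and 4 young adult peaks. The bin with the most peaks, from 250 to 300 kb above the lower edge, had 27 early embryo, 12 L3 and 15 young adult peaks. The bin with the fewest in early embryo, from 200 to 250 kb, had 7, 5 and 4. The first bin, from 0 to 50 kb, had 22, 9 and 16. The next bins, from 50 to 150 kb, had 20 and 17 early embryo peaks, 10 and 8 L3 peaks, and 6 and 4 young adult peaks, so that L3 peaks outnumbered young adult peaks in both. In the bin from 150 to 200 kb the counts were 14, 6 and 7. The last bin, from 400 to 450 kb, had 17 early embryo, 5 L3 and 6 young adult peaks.

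**Figure D5:**
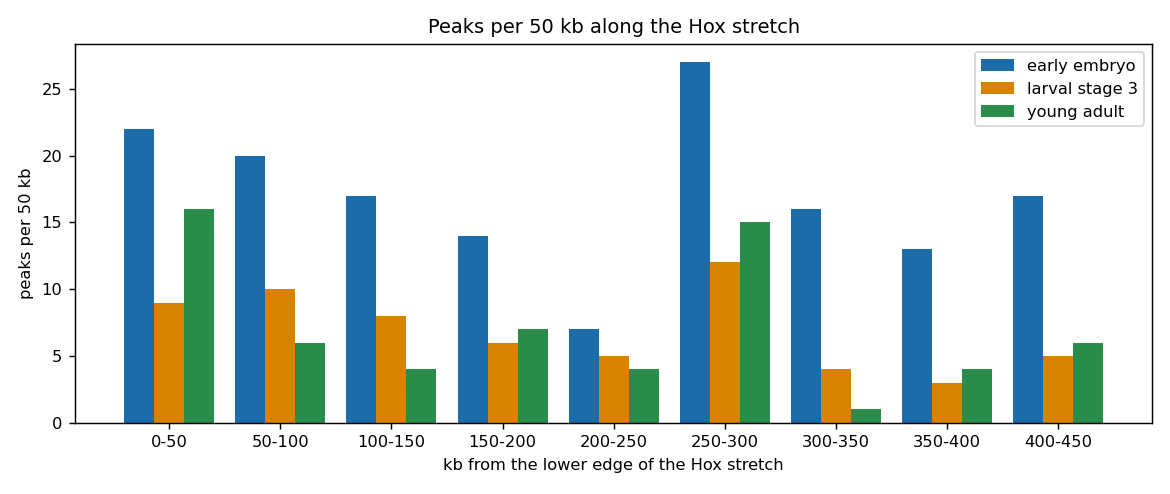
Number of peaks in each 50 kb bin along the stretch, in kb from its lower edge, at each stage (bars from 0). The bin from 250 to 300 kb is the richest (27, 12 and 15 peaks), and from 300 to 350 kb there are 16 early embryo peaks, 4 L3 peaks and 1 young adult peak.

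Peaks stood in groups with long spaces between. The median distance between neighbouring summits was 1.5 kb in early embryo, 3.32 kb in L3 and 2.23 kb in young adult. Of the 45 bins of 10 kb, 5 held no early embryo peak, 17 no L3 peak and 21 no young adult peak. The longest space between summits was 29.5 kb in early embryo (from 7660398 to 7689899), 38.7 kb in L3 (from 7584376 to 7623063) and 57.3 kb in young adult (from 7584379 to 7641682). The L3 and young adult spaces began at the same region, and the early embryo list had peaks within both. In the 8 other 450 kb windows the median distance had medians of 1.31, 3.15 and 2.57 kb at the same stages. The longest space there, counted to the window edges too, had medians of 25.7, 44.3 and 50.6 kb. The stretch lay inside the range of these windows in both measures at every stage.

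Dense groups differed in how far they were shared between stages. The longest series of early embryo peaks with at most 1 kb from summit to summit had 7 peaks from 7494842 to 7498632, of which 3 were found at all stages and 1 in early embryo alone. The next longest had 6 peaks from 7530089 to 7532148, of which 4 were in early embryo alone and 0 at all stages. Of the 15 early embryo series of 3 or more such peaks, 4 were made up wholly of peaks of that list alone. Peaks of that list alone were 55.6% of the early embryo peaks of the stretch and 50.9% of the whole list. Series were not counted outside the stretch, so that these counts do not set its groups apart. In young adult, 5 peaks lay from 7494808 to 7496473, and 4 of them adjoined without a gap from 7495300 to 7496473, the longest such series in the stretch. Their fold enrichments were from 1.85 to 2.27, and 2 of the 4 were in the young adult list alone. Adjoining peaks arise where the authors divided a wide peak with several summits, so that their number depends on that step. Another group, from 7641504 to 7643322, had 4 peaks in L3, 4 in early embryo and 5 in young adult, none of which was in 1 list alone.

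The widest peaks were mostly the strongest ones. In early embryo the region at 7570056 (780 bp) was followed by those at 7659230 (753 bp) and 7558461 (541 bp). In L3 the region at 7569934 (875 bp) was followed by chrIII:7489923-7490618 (696 bp, fold enrichment 2.81, rank 7525) and the region at 7659238 (619 bp). In young adult the region at 7570056 (774 bp) was followed by chrIII:7729231-7729973 (743 bp, fold enrichment 4.69, rank 2605) and the region at 7659238 (699 bp).

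The lower edge of the stretch fell in open ground between peaks. The last summits below it were 60.9 kb away in early embryo, 62.0 kb in L3 and 62.4 kb in young adult, and the first summits inside were 7.23, 3.85 and 3.83 kb from it. At the higher edge, the last summits inside were 4.16, 8.05 and 8.06 kb away and the first beyond it 5.45, 26.1 and 11.8 kb away. No peak summit stood within 3 kb of either edge, so that a small shift of the edges would not change the members.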

How the data were processed

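ATAC-seq was made by the authors on whole worms, and the deposited lists give 1 set of peaks per stage on the ce10 build. Per the study's methods and the submitters' processing notes, reads were aligned with Bowtie2 2.1.0, Picard was used on duplicates, each read end was placed at its insertion site, and MACS called peaks on pooled replicates at a q-value of 0.05. Wide peaks were divided between summits, peaks that recurred across replicates were favoured, and blacklisted and input regions were removed. The deposited columns are peak positions (start, end, summit offset), a display score (10 times −log10 q in all but 1 early embryo peak), fold enrichment (a ratio) and −log10 q.

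From these, peaks with a summit in the stretch were counted, matched and ranked by fold enrichment with pandas 2.3.3 and scipy 1.17.1; bedtools 2.31.1 gave the same matches, and the matching was checked on simulated data. Shares carry 95% Clopper-Pearson intervals. The chromosome's length was taken as its last peak end. The named peaks are, per list, the 5 of highest fold enrichment, the 3 widest, the 3 strongest of that list alone, those at the edges and in the longest adjoining series, and their counterparts, with the fullest 10 kb bin. No normalization or count test applies, since there are no reads per sample. The members and these rules were chosen with earlier results of these data known. The input control was not used here beyond the authors' filter.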

Additional observations from a re-analysis of the deposited data

How the results depend on the processing

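No paired analysis was possible because each list pools the replicates of its stage, and for the same reason no replicate could be left out. Of 144 values recomputed under other settings, 124 stayed close to the first value (within 1.5 times for counts and ratios, within the exact interval for shares) and 20 did not. Thresholds of 2 and 5 on −log10 q, joining of adjoining peaks and edges moved inward by 25 kb moved none of them. Neither sliding windows nor tiles over the whole chromosome moved the ratios to the other windows. The thresholds removed no peak of the stretch (153, 62 and 63 at both), so that they do not check its numbers of peaks. Nor do they check its peaks in 1 list alone, whose possible counterparts also stayed. The L3 list has the equal length from the start, so that its number of peaks was fixed under that setting too. The 124 include these fixed values, so that the tally overstates how far the results were checked. Lists of equal length (13040 peaks) gave 57 early embryo peaks by −log10 q and 58 by fold enrichment, in place of 153. Peaks in 1 list alone became 18 and 17 in early embryo (in place of 85), 13 and 12 in L3 (in place of 4) and, by −log10 q, 15 in young adult (in place of 9). Counting any shared base as a match left 2 L3 peaks in that list alone. Shorter lists by construction remove the weaker peaks of the longer ones, both as peaks and as counterparts. With adjoining peaks joined, 1 of the 27 tiles had fewer young adult peaks than the higher 150 kb, and 26 had more. Sequencing depth limits each statement on an absent peak: a region missing from a list may be open below the threshold of that list. Such a region may also have failed the authors' step that favoured peaks recurring across replicates.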
